A study of Mus musculus with 6 samples.

Results

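The genes described here encode mitochondrial ribosomal proteins, measured in activated CD4 T cells of mice lacking miR-155 and of wild-type mice. They are the genes whose symbol is Mrpl or Mrps followed by a number, taken from probe sets that the platform annotation gives a single gene symbol. Mrpl39 was left out because it lies beside the Mir155 locus. This gave 70 member genes, 24 with Mrps names and 46 with Mrpl names, out of 12394 genes on the array. The names stand for the small and the large subunit, with Mrps30 and Mrps36 as exceptions described below. They were measured by 122 probe sets, 1 for each of 38 genes and several for each of 32 genes. A filter that dropped the dimmest 25% of genes kept 9295 for testing, and all 70 members passed it through their mean over both groups.

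The knockout group (KO) comprised 3 arrays of CD4 T cells from mice without miR-155, and the wild-type group (WT) comprised 3 arrays of CD4 T cells from mice with it. All mice were C57BL/6, the cells came from spleen and lymph nodes, and the series description gives 1 mouse per array. In both groups, cells bound by magnetic beads against CD4 were stimulated through CD3 and CD28 (1 µg/mL antibody) with 20 U/mL of interleukin 2, and were harvested after 3 days. The knockout is in the whole animal as far as the labels tell, the isolated cells are a bulk population, and fewer cells of a type cannot be told apart from less RNA per cell. The comparison asks how transcript levels differ in activated T cells without this microRNA, which is normally induced when T cells are activated.

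Mitochondria keep a small genome of their own, and the few proteins it encodes, all subunits of the respiratory chain and ATP synthase, are made by a dedicated ribosome. The ribosomal RNAs of that ribosome come from the mitochondrial genome, whereas all its proteins are encoded in the nucleus, made in the cytosol and imported. Some of these proteins have bacterial counterparts and others are found only in mitochondria. Activated T cells enlarge their mitochondria and need mitochondrial translation to proliferate and to make cytokines.

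The microRNA that the KO mice lack is shown because it defines the comparison. Its main mature strand, from RefSeq (GRCm38.p6, chr16:84714143-84714165, plus strand), is printed with the seed, bases 2 to 8, in capitals.
mmu-miR-155-5p: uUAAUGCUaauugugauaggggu

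Promoter windows of member genes are shown to set the letters of the members' start regions beside the expression values. The windows are RefSeq's (GRCm38.p6) and run from 250 bases before to 50 bases after the annotated start, 5′ to 3′ on the gene's strand. Of the 70 members, 61 had a window, 67 windows in all. Capitals mark the letters of the motifs searched on both strands, which were NRF1 (GCGCATGCG), ETS (CCGGAAG), YY1 (AAGATGGC), the E-box (CACGTG), the CCAAT box (CCAAT), the GC box (GGGCGG) and ERRa (TCAAGGTCA). Mrpl17 (chr7:105811038-105811337, minus strand) and Mrpl9 (chr3:94443086-94443385, plus strand) hold the NRF1 letters, and Mrpl42 (chr10:95501900-95502199, minus strand) holds the YY1 letters. Mrps12 (chr7:28741772-28742071, minus strand) holds both the ETS and the YY1 letters. In Mrpl9 the NRF1 letters occur on both strands and overlap, and in Mrpl17 the ETS letters overlap a GC box.
Mrpl17: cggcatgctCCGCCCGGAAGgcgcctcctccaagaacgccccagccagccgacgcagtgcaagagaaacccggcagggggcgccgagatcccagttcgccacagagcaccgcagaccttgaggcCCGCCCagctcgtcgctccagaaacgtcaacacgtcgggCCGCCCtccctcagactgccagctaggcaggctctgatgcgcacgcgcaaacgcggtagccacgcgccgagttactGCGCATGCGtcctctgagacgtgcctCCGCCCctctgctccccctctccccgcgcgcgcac
Mrpl9: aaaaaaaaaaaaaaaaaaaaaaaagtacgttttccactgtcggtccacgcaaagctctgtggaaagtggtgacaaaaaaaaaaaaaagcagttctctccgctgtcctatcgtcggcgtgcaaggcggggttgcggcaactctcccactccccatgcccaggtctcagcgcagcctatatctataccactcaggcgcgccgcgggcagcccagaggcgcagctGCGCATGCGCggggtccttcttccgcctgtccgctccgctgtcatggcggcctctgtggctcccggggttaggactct
Mrpl42: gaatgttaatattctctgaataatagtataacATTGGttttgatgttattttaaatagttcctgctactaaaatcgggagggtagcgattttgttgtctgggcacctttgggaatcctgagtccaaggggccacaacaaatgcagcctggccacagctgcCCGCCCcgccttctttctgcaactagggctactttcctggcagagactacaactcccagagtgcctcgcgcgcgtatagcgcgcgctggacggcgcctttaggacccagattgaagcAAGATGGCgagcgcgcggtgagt
Mrps12: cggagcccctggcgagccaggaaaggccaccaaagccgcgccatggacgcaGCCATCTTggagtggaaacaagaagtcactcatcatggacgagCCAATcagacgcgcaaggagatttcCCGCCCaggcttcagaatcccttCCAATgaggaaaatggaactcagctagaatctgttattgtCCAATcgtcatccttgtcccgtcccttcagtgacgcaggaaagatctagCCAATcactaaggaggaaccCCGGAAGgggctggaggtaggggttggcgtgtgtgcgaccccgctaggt

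The NRF1 letters were in 7.46% of the member windows, against 3.47% of the 9673 windows of tested genes and 1.75% of all 32851 windows in the table. The ETS letters were in 31.3% of member windows, against 17% of tested and 8.86% of all windows. For the YY1 letters the shares were 14.9% of member windows, 4.32% of tested and 2.75% of all windows. In 6 of the 10 member windows with the YY1 letters, the match lay after the start, where it includes the letters ATG. The CCAAT box (38.8% of member and 37.3% of tested windows), the E-box (8.96% and 9.77%) and the GC box (55.2% and 61.4%) were about as frequent in member windows as in those of all tested genes or less so. The ERRa letters were in 0 of 67 member windows and in 0.289% of tested windows. Some genes gave several windows, in part overlapping, so shares of windows can count the same letters more than once. The 6 member windows with the E-box, for example, came from 4 of the 61 genes. The median KO minus WT difference was -0.38 in the 10 members with the YY1 letters and -0.32 in the others with a window. It was -0.24 in the 21 members with the ETS letters, against -0.37 in the others, and -0.22 in the 5 with the NRF1 letters, against -0.34 in the others. A match describes these letters in this window and is not evidence of a bound site.

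The arrays did not fall apart by genotype alone, and the members moved with the difference between arrays. The first principal component of the tested genes held 61.9% of the variance, with scores of -41.3, 13.4 and -14.6 for KO replicates 1, 2 and 3 and of 26.1, 23.8 and -7.36 for WT replicates 1, 2 and 3. Both replicate 3 arrays carried Xist, which is made from the inactive X chromosome, together with the Y-linked Eif2s3y, so these arrays may not each hold the RNA of a single mouse. Both replicate 1 arrays carried Xist without Eif2s3y and both replicate 2 arrays Eif2s3y with little Xist, so arrays of the same number shared these sex-linked transcripts across genotypes. Xist measured 13.35, 5.94 and 12.59 in KO against 13.08, 5.66 and 12.64 in WT, and Eif2s3y measured 3.50, 10.41 and 10.05 in KO against 3.44, 10.51 and 10.21 in WT, in log2 units. The labels were checked on the host gene of miR-155, Mir155hg, which measured 3.51, 3.89 and 4.45 on KO replicates 1 to 3, against 7.69, 6.59 and 8.21 on WT replicates 1 to 3, each array lying on the side its label gives. The part of the locus that was deleted is not given in the sources used here. The medians of the arrays lay between 6.45 and 6.49, and the signal difference between the 3′ and 5′ probes of actin was 0.32 to 0.36 on the KO arrays and 0.28 to 0.37 on the WT arrays.

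The member genes were, as a group, at lower levels in KO than in WT, by small amounts that no single gene carried past the test. The KO mean lay below the WT mean in 67 of 70 members, or 95.7%, where the same was true of 50.8% of all 9295 tested genes. The median difference, KO minus WT on the log2 scale, was -0.34, which is a 1.27-fold lower level, against -0.0035 over all tested genes. The differences ran from -0.67 (Mrpl55) to 0.12 (Mrpl33), with 11 members at -0.5 or below, 40 between -0.5 and -0.2 and 19 within 0.2 of zero in either direction. Of all tested genes, 5.91% lay at -0.5 or below, against 15.7% of members.

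By limma, 0 of 70 members had an adjusted p under 0.05 (Benjamini-Hochberg over 9295 genes, two-sided), as did 0% of all tested genes, and the smallest adjusted p of a member was 0.631. At an unadjusted p under 0.05, 7 members were lower in KO (10%, against 3.86% of all tested genes) and 0 were higher (against 3.57%). The 3 KO arrays lay wholly below the 3 WT arrays in 17 members (24.3%, against 6.92% of all tested genes) and wholly above them in 0 (against 5.86%). The members were measured together on the same 6 arrays, so these counts are not 70 independent observations.

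**Figure D1:**
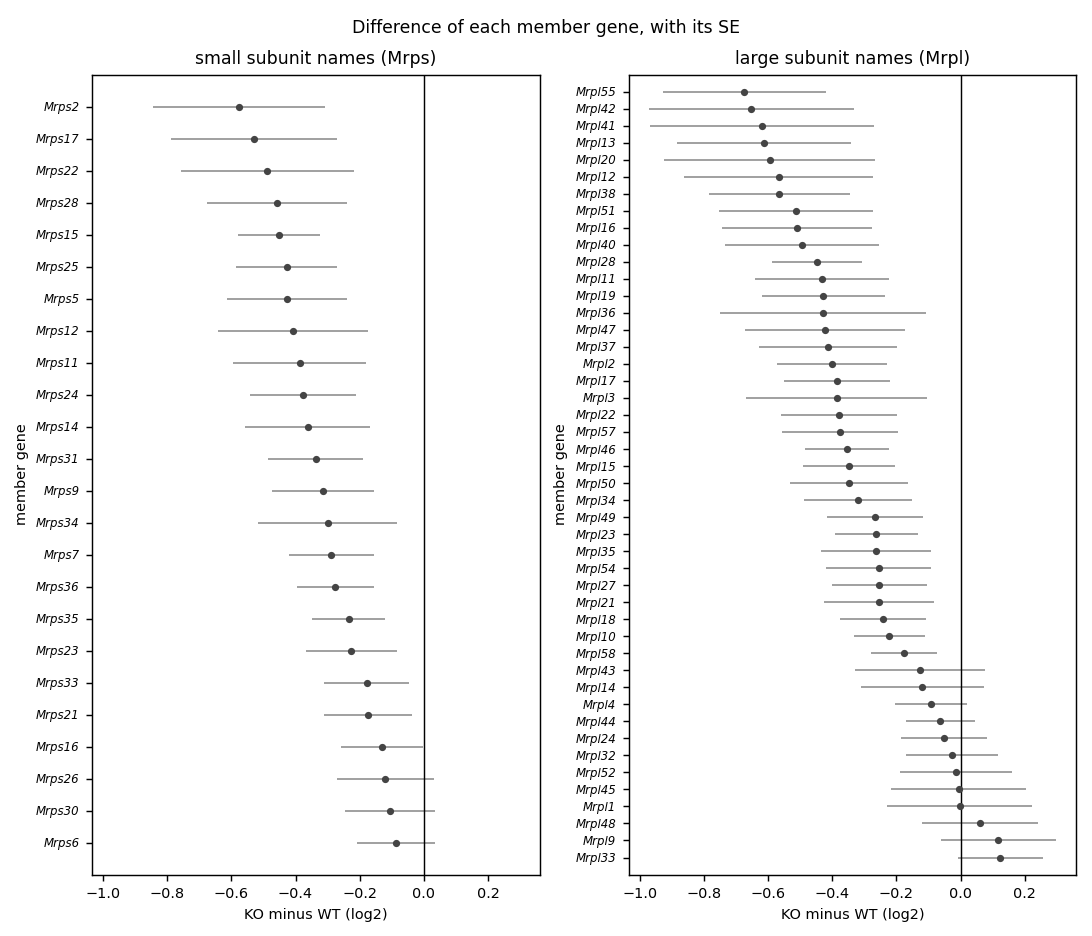
Difference of each member gene, KO minus WT on the log2 scale (x axis), with points for the limma estimate and lines for its SE, in small subunit names (left, 24 genes) and large subunit names (right, 46 genes). Of the 70 points, 67 lie left of zero, and Mrpl33, Mrpl9 and Mrpl48 lie right of it.

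Array by array, the low values came mostly from KO replicates 1 and 3 and the high values from WT replicates 1 and 2. Relative to each gene's mean over the 6 arrays, the members averaged -0.26, 0.005 and -0.21 on KO replicates 1, 2 and 3, against 0.27, 0.21 and -0.02 on WT replicates 1, 2 and 3. The lowest of the 6 values was on KO replicate 1 in 37 members, on KO replicate 3 in 20 and on KO replicate 2 in 10, and on a WT array in the rest. These are shares of 52.9%, 28.6% and 14.3%, where the same arrays held the lowest value in 30.2%, 12.8% and 11.98% of all tested genes. The highest value was on WT replicate 1 in 40 members (57.1%, against 23.4% of all tested genes) and on WT replicate 2 in 17 (24.3%, against 13.6%). Between arrays of the same replicate number, the KO array was the lower in 60 of 70 members for replicate 1 (85.7%, against 50.1% of all tested genes). For each of replicates 2 and 3 it was the lower in 67 (95.7%, against 55.3% and 52.9%). KO replicate 2 and WT replicate 3 were level with each other, with a median difference of 0.06. KO replicate 2 lay below WT replicate 3 in 34 of 70 members (48.6%, against 52.4% of all tested genes). In the other 8 pairings of a KO with a WT array, the KO array was the lower in 57 to 67 of the 70 members (81.4% to 95.7%). The same pairings gave 47.3% to 55.3% over all tested genes. Ordered by member level, the arrays stood as they did on the first principal component, which was computed on all tested genes with the members among them. The part of that component in the members' difference was not tested.

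**Figure D2:**
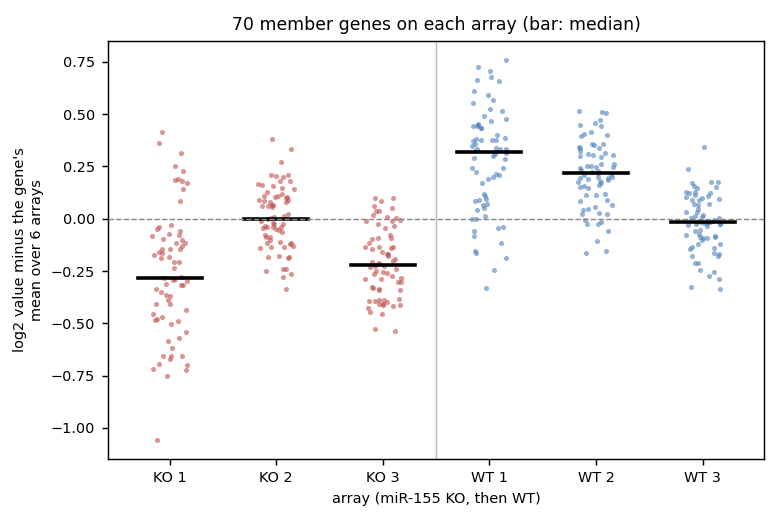
Log2 value of each of the 70 member genes minus that gene's mean over the 6 arrays (y axis) on the KO arrays, then the WT arrays (x axis), with bars for the median. The medians are -0.28, 0.00005 and -0.22 on KO replicates 1 to 3, against 0.32, 0.22 and -0.02 on WT replicates 1 to 3.

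**Figure D3:**
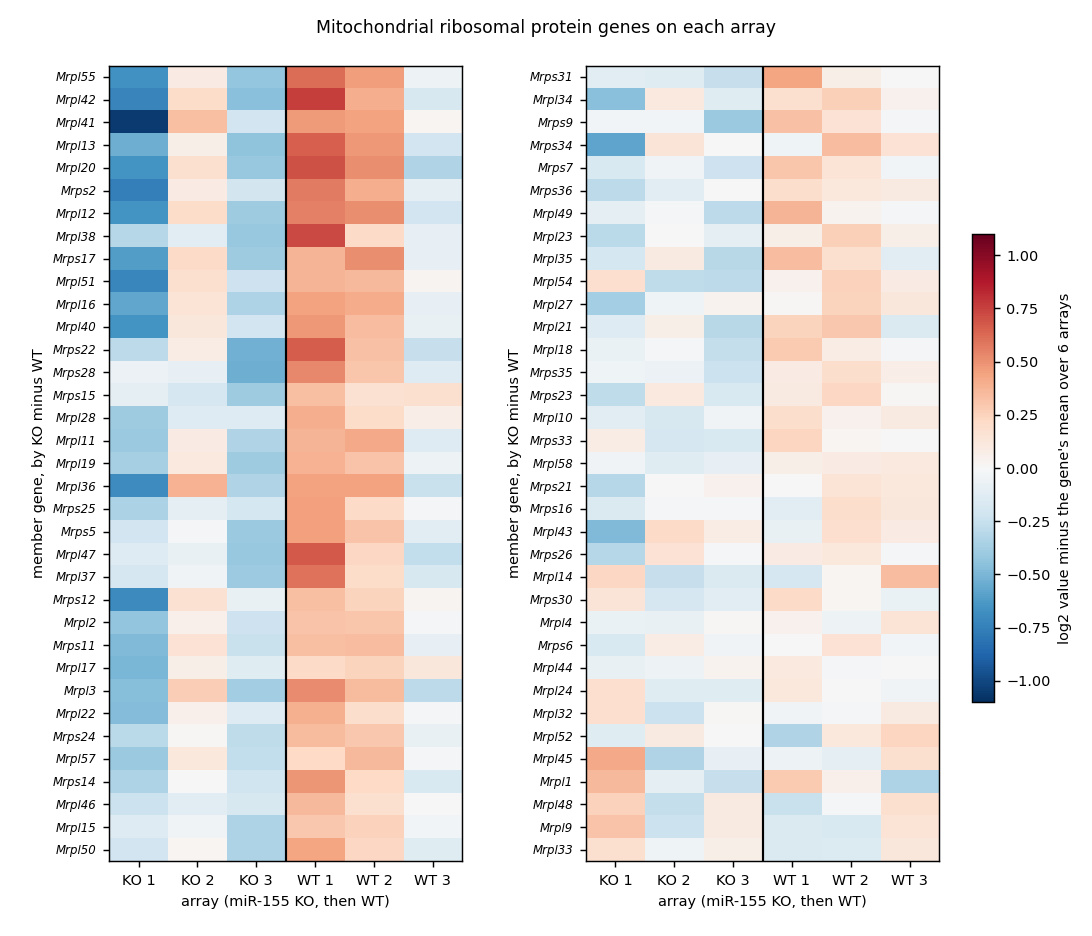
Log2 value of each member minus its mean over the 6 arrays (colour), with genes in rows ordered by KO minus WT and arrays in columns, KO then WT. Rows at the top of the left panel are lowest on KO replicate 1 and highest on WT replicates 1 and 2, and the rows at the bottom of the right panel do not show this order. KO replicate 1 is the highest of the 6 arrays in 7 members, among them Mrpl33, Mrpl9 and Mrpl48 at the bottom.

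Without KO replicate 1, the array farthest out on the first principal component, the KO mean was below the WT mean in 66 of 70 members (against 52.4% of all tested genes) and the median difference was -0.26. At an unadjusted p under 0.05, 3 members were then lower (against 2.64% of all tested genes). Without KO replicate 2, 28 members were lower at that threshold (against 9.33%), and without WT replicate 3, 30 were (against 8.12%). With arrays weighted by how closely they follow the fit, limma placed most weight on KO replicate 3 (5.55) and WT replicate 2 (5.05) and gave 47 members an adjusted p under 0.05, all lower in KO, against 20.6% of all tested genes lower. That fit rests in effect on those 2 arrays.

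The member with the smallest p was Mrps15, the counterpart of a bacterial small subunit protein that binds the ribosomal RNA early in assembly. It measured 10.02, 9.93 and 9.72 on KO replicates 1 to 3, against 10.45, 10.28 and 10.29 on WT replicates 1 to 3. Its highest KO array lay below its lowest WT array, the difference was -0.45 ± 0.13 (SE) and the unadjusted limma p was 0.0103 (adjusted p = 0.631). Without KO replicate 1 the difference was -0.52, so this gene does not rest on that array.

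Mrpl28, a large subunit protein with a bacterial counterpart, measured 9.10, 9.35 and 9.35 on KO replicates 1 to 3, against 9.89, 9.69 and 9.56 on WT replicates 1 to 3. The groups did not overlap, and the difference was -0.45 ± 0.14 (SE) with an unadjusted limma p of 0.0166 (adjusted p = 0.631). These values are of its brightest probe set, with a mean of 9.49. Its other probe sets differed by -0.04 and -0.47. The probe set at -0.04 was nearly as bright, with a mean of 9.23, and its groups overlapped. Mrpl15, also a large subunit protein with a bacterial counterpart, measured 10.49, 10.59 and 10.30 on KO replicates 1 to 3, against 10.93, 10.88 and 10.61 on WT replicates 1 to 3, a difference of -0.35. It had the most probe sets, 7, all of them lower in KO, with differences of -0.45 to -0.15. Mrpl17, whose window is printed above, measured 9.54, 10.10 and 9.91 on KO replicates 1 to 3, against 10.26, 10.29 and 10.16 on WT replicates 1 to 3. Its groups were apart by a difference of -0.39, with an unadjusted limma p of 0.0539, and the difference came to -0.23 without KO replicate 1. The other probe set of Mrpl17, with a mean of 4.75, was barely brighter than the dimmest gene tested (4.72). It differed by -0.0088, and its groups overlapped.

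Besides Mrps15, Mrpl28 and Mrpl15, the members with an unadjusted limma p under 0.05 were proteins found only in mitochondrial ribosomes. Mrps25, in the small subunit, measured 8.65, 8.90 and 8.81 on KO replicates 1 to 3, against 9.45, 9.21 and 8.98 on WT replicates 1 to 3, with no overlap and a difference of -0.43. Mrpl46, in the large subunit, measured 8.94, 9.05 and 8.99 on KO replicates 1 to 3, against 9.53, 9.35 and 9.17 on WT replicates 1 to 3, again without overlap, a difference of -0.36. Mrpl38 measured 7.56, 7.75 and 7.45 on KO replicates 1 to 3, against 8.59, 8.08 and 7.78 on WT replicates 1 to 3, a difference of -0.56 ± 0.22 (SE), and WT replicate 1 stood above the other arrays. Without that array the difference of Mrpl38 was -0.34. Mrpl55 measured 7.59, 8.35 and 7.83 on KO replicates 1 to 3, against 8.87, 8.72 and 8.21 on WT replicates 1 to 3. It had the largest difference among the members, -0.67 ± 0.25 (SE), but KO replicate 2 lay above WT replicate 3, so its groups overlapped.

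**Figure D4:**
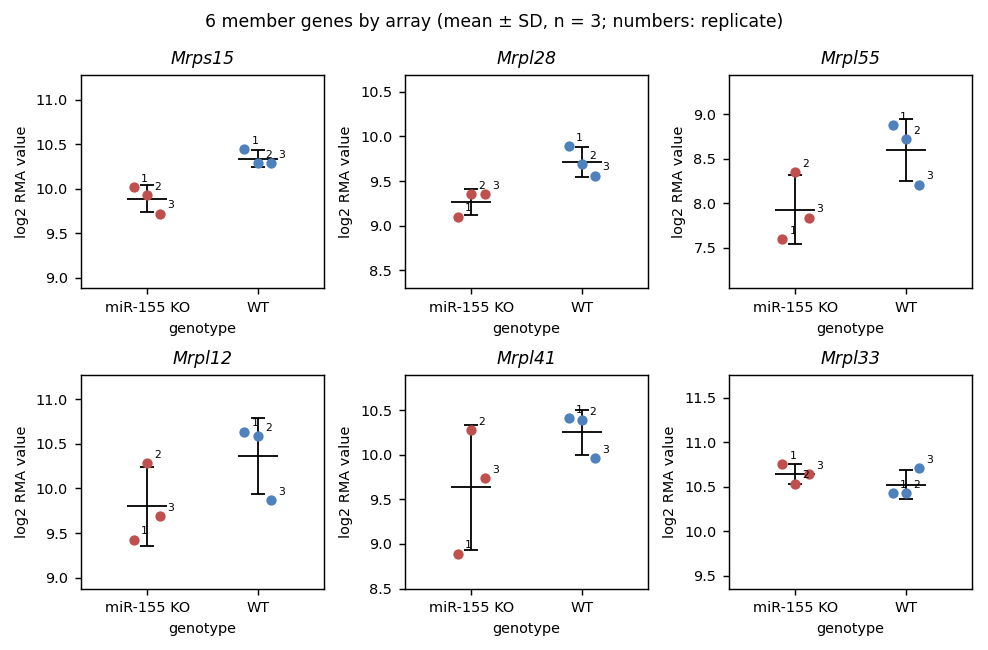
Log2 RMA value (y axis) of 6 member genes on each array, KO left and WT right (x axis), with points for arrays numbered by replicate and lines for the mean ± SD (n = 3 each). The groups are apart in Mrps15 and Mrpl28, overlap through KO replicate 2 or WT replicate 3 in Mrpl55, Mrpl12 and Mrpl41, and Mrpl33 averages higher in KO.

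Members with a known part in the working ribosome were lower in KO on average, mostly with overlapping groups. Mrpl12, a protein of the flexible stalk that recruits translation factors and that has also been reported to bind the mitochondrial RNA polymerase, measured 9.42, 10.28 and 9.69 on KO replicates 1 to 3, against 10.64, 10.59 and 9.87 on WT replicates 1 to 3. KO replicate 2 lay above WT replicate 3, and the difference was -0.57 ± 0.29 (SE). Mrpl10, the base on which the stalk sits, measured 9.03, 8.97 and 9.11 on KO replicates 1 to 3, against 9.34, 9.19 and 9.24 on WT replicates 1 to 3, a difference of -0.22 with the KO arrays below all WT arrays. Mrps12, which lies at the decoding centre and whose bacterial counterpart is the site of streptomycin resistance, measured 9.06, 9.93 and 9.68 on KO replicates 1 to 3, against 10.09, 10.01 and 9.79 on WT replicates 1 to 3. KO replicate 1 set much of its difference, which was -0.41 with all arrays and -0.16 without that array. Mrps5, whose bacterial counterpart takes part in the accuracy of decoding, differed by -0.43, with 8.11 ± 0.19 in KO against 8.54 ± 0.30 in WT (SD, n = 3 each).

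Mrpl41 and Mrpl42, both in the large subunit and without a bacterial counterpart, had large differences on their brightest probe sets. Mrpl41 measured 8.89, 10.28 and 9.74 on KO replicates 1 to 3, against 10.42, 10.39 and 9.96 on WT replicates 1 to 3. The low value is KO replicate 1, and the difference was -0.62 with all arrays and -0.25 without it. Its other probe sets differed by -0.53 and 0.13, and the probe set at 0.13 had a mean of 4.23, below the dimmest gene tested (4.72). Mrpl42 measured 9.23, 10.16 and 9.50 on KO replicates 1 to 3, against 10.72, 10.35 and 9.78 on WT replicates 1 to 3, a difference of -0.65, and its dim probe set, with a mean of 3.47, differed by 0.13. Mrpl11, a large subunit protein with a bacterial counterpart, had 4 probe sets that differed by -0.43, -0.50, -0.31 and 0.06. Over all 122 probe sets, 110 were lower in KO and 12 higher, and of the 112 probe sets at least as bright as the dimmest tested gene, 104 were lower and 8 higher.

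Other members with differences of -0.5 or below, named here after their values were seen, all had overlapping groups. Mrpl13, the counterpart of a bacterial large subunit protein, measured 9.56, 10.17 and 9.66 on KO replicates 1 to 3, against 10.76, 10.58 and 9.89 on WT replicates 1 to 3, a difference of -0.61. Mrpl20 measured 9.34, 10.17 and 9.58 on KO replicates 1 to 3, against 10.70, 10.51 and 9.67 on WT replicates 1 to 3, a difference of -0.59. In both, WT replicate 3 lay below KO replicate 2, and Mrpl20 ranged over -0.91 to -0.39 with single arrays left out, from without WT replicate 3 to without WT replicate 1. Mrps2 differed by -0.58, Mrps17 by -0.53, Mrpl51 by -0.51 and Mrpl16 by -0.51, and without KO replicate 1 these differences were -0.34, -0.35, -0.28 and -0.35.

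Several members with smaller differences had groups that did not overlap, and they are likewise named after their values were seen. Mrpl58, a peptidyl-tRNA hydrolase built into the large subunit, measured 9.82, 9.72 and 9.76 on KO replicates 1 to 3, against 9.92, 9.94 and 9.96 on WT replicates 1 to 3. Its arrays agreed closely within each group, and its difference was -0.18 ± 0.10 (SE), the smallest among the 17 members whose groups lay apart. Mrps35 measured 9.54, 9.52 and 9.35 on KO replicates 1 to 3, against 9.67, 9.78 and 9.66 on WT replicates 1 to 3, a difference of -0.23. Mrps7, whose bacterial counterpart starts the assembly of part of the small subunit, measured 9.27, 9.40 and 9.22 on KO replicates 1 to 3, against 9.75, 9.60 and 9.41 on WT replicates 1 to 3, a difference of -0.29. Mrps9 differed by -0.31, Mrpl49 by -0.27 and Mrpl23 by -0.26. The other probe sets of Mrps9, all brighter than the dimmest gene tested, differed by -0.06, -0.28 and 0.08. With single arrays left out, the differences nearest to zero were -0.17 for Mrps35, -0.21 for Mrps7 and -0.18 for Mrpl23. They were -0.19 for Mrps9, without KO replicate 3, and -0.15 for Mrpl49, without WT replicate 1.

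The members with a higher mean in KO were few, and their differences were small. Mrpl33, the counterpart of a small bacterial large-subunit protein, measured 10.76, 10.54 and 10.64 on KO replicates 1 to 3, against 10.43, 10.43 and 10.71 on WT replicates 1 to 3, a difference of 0.12 ± 0.13 (SE), and WT replicate 3 lay within the KO range. Mrpl9, also with a bacterial counterpart, measured 10.28, 9.73 and 10.07 on KO replicates 1 to 3, against 9.80, 9.80 and 10.12 on WT replicates 1 to 3, a difference of 0.12 that came to -0.011 without KO replicate 1. Mrpl48 measured 9.88, 9.36 and 9.72 on KO replicates 1 to 3, against 9.38, 9.60 and 9.80 on WT replicates 1 to 3, a difference of 0.06. None of these differences exceeded its SE, which was 0.13 for Mrpl33 and 0.18 for Mrpl9 and Mrpl48. The difference of Mrpl48 ran from -0.051 to 0.21 when single arrays were left out. Mrpl52 was nearly level, with 11.22 ± 0.12 in KO against 11.24 ± 0.30 in WT (SD, n = 3 each).

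Among the brightest members, Mrps16 and Mrpl52 differed by -0.13 and -0.01, Mrps14 by -0.36 and Mrpl18 by -0.24. With single arrays left out, the differences ran over -0.22 to -0.07 in Mrps16, -0.54 to -0.21 in Mrps14 and -0.31 to -0.16 in Mrpl18, and the value nearest to zero came without WT replicate 2 in Mrps16 and without WT replicate 1 in Mrps14 and Mrpl18. Among the dimmest, Mrpl38 and Mrps31 differed by -0.56 and -0.34, Mrpl55 by -0.67 and Mrps11 by -0.39. Mrps31 differed by -0.20 without WT replicate 1, and Mrps11 by -0.24 without KO replicate 1. Values of different probe sets are not compared with one another, since their brightness also depends on the probes.

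Lower means in KO were found in both subunits and among proteins of both origins. All 24 Mrps genes and 43 of 46 Mrpl genes had a lower mean in KO, with median differences of -0.33 and -0.35. Small subunit proteins with a bacterial counterpart had a median of -0.38 (14 of 14 lower) and those found only in mitochondria -0.27 (8 of 8 lower). For the large subunit, Mrps30 included, the medians were -0.33 (26 of 28 lower) with a bacterial counterpart and -0.35 (18 of 19 lower) without one. Mrps30, which despite its name is a large subunit protein, measured 9.67, 9.35 and 9.42 in KO against 9.74, 9.56 and 9.46 in WT, a difference of -0.11 that came to -0.027 without WT replicate 1. Mrps36, whose product is now known as a component of the 2-oxoglutarate dehydrogenase complex, measured 9.57, 9.74 and 9.85 in KO against 10.06, 9.98 and 9.96 in WT, a difference of -0.28 without overlap. The members lie on 17 chromosomes, 11 of them on chromosome 11, and the 2 members on chromosome 16, where Mir155 lies, were Mrpl40 (-0.49) and Mrps6 (-0.09), named here for their position after their values were seen. Without KO replicate 1 these differences were -0.29 and -0.03.

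Many members start back to back with another gene. Of the 61 members with a window, 20 (32.8%) had the start of another protein-coding gene on the opposite strand within 1000 bases upstream. The same held for 988 of 7485 tested protein-coding genes with a window (13.2%). In 1 such pair both genes were members, Mrpl46 and Mrps11, whose starts lie 42 bases apart on chromosome 7. Mrps11 differed by -0.39 and Mrpl46 by -0.36. Of the other partners, 13 were tested, of which 7 had a lower mean in KO, with a median difference of -0.0098, against -0.35 for the members beside them. Eme1, which encodes part of a DNA endonuclease and starts 48 bases from Mrpl27, differed by -0.57, with means of 7.48 in KO and 8.05 in WT and an unadjusted limma p of 0.028 (adjusted p = 0.631). Pnpla7, a lysophospholipase gene 935 bases from Mrpl41, differed by 0.41, with means of 6.95 in KO and 6.53 in WT and an unadjusted limma p of 0.0145 (adjusted p = 0.631). Sars2, the mitochondrial seryl-tRNA synthetase gene 147 bases from Mrps12, differed by 0.04. These partners were chosen after their values were seen.

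Proteins of the mitochondrial ribosome that carry other names had a median difference close to that of the members. All 7 that were tested had a lower mean in KO (against 50.8% of all tested genes), with a median of -0.33. Relative to each gene's own average they averaged -0.06, -0.09 and -0.25 on KO replicates 1 to 3. KO replicate 3 was thus their lowest array, where the members were lowest on KO replicate 1. At an unadjusted limma p under 0.05, 1 of the 7 was lower (against 3.86% of all tested genes). That gene was Chchd1, a small subunit protein, which measured 10.57, 10.85 and 10.68 in KO against 11.22, 11.12 and 10.87 in WT, a difference of -0.37. Mrps18a differed by -0.33. Of 18 tested assembly factors of the mitochondrial ribosome, 17 had a lower mean, with a median of -0.19. Among them Tfb1m, which dimethylates the small ribosomal RNA, measured 7.56, 8.28 and 7.75 in KO against 8.87, 8.85 and 8.31 in WT, a difference of -0.81 with an unadjusted limma p of 0.0132 (adjusted p = 0.631), and C1qbp differed by -0.50.

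The further steps of mitochondrial gene expression were more mixed. Among translation factors 11 of 14 had a lower mean (median -0.09), with Tufm, the elongation factor Tu, at -0.29 and the tRNA-modifying Mto1 at -0.31. Of the mitochondrial aminoacyl-tRNA synthetases, 5 of 8 had a lower mean (median -0.20), among them Pars2 at -0.33, whereas Tars2 differed by 0.45. In the list of mitochondrial transcription genes 7 of 11 had a lower mean (median -0.21). Tfam, which packages mitochondrial DNA, differed by -0.37 and Hsd17b10, a subunit of mitochondrial ribonuclease P, by 0.40. None of these genes had an adjusted p under 0.05.

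**Figure D5:**
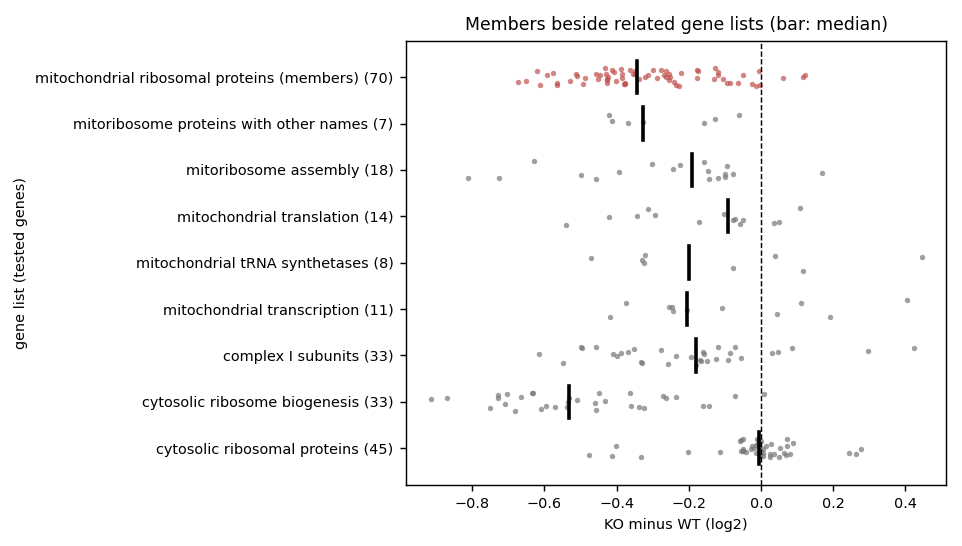
Difference of each tested gene, KO minus WT on the log2 scale (x axis), in the member genes and 8 related gene lists (y axis), with bars for medians. The members have a median of -0.34, genes of cytosolic ribosome biogenesis -0.53 and cytosolic ribosomal proteins -0.01.

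Genes of complex I, the largest respiratory chain complex and a user of mitochondrially made subunits, had a lower mean in KO in 28 of 33, with a median of -0.18. The KO arrays lay below all WT arrays in 11 of them (33.3%, against 6.92% of all tested genes), and Ndufs5 differed by -0.55 and Ndufc1 by -0.46. Genes of cytosolic ribosome biogenesis had a lower mean in 32 of 33, with a median of -0.53 that came to -0.24 without KO replicate 1. Relative to each gene's own average, their mean was -0.73, 0.36 and -0.36 on KO replicates 1 to 3. It was 0.69, 0.39 and -0.34 on WT replicates 1 to 3, so these genes were low on WT replicate 3 as well. The KO arrays lay below all WT arrays in 1 of these genes (3.03%, against 6.92% of all tested genes). That gene was Polr1c, a subunit shared by RNA polymerases I and III, which differed by -0.34, and Nop14, a factor for the small cytosolic subunit, differed by -0.45. Proteins of the cytosolic ribosome itself had a lower mean in 25 of 45, with a median of -0.0069. Among them Rps4l differed by -0.48 and Rpl27a by 0.28. The difference between these lists and the members was not tested.

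Of the tested regulators known to act on genes for mitochondrial proteins, 7 of 12 had a lower mean in KO (median -0.09). Myc, a transcription factor that drives ribosome and mitochondrial gene expression in activated T cells, measured 10.02, 10.84 and 10.55 in KO against 11.01, 10.82 and 10.79 in WT, a difference of -0.40 that was -0.18 without KO replicate 1. Gabpa, the DNA-binding subunit of an ETS family factor, measured 9.26, 9.27 and 9.38 in KO against 9.60, 9.41 and 9.49 in WT, and its KO arrays lay below all WT arrays by a difference of -0.20. Nrf1, whose product binds the NRF1 letters searched above, differed by 0.05.

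The cells were checked against markers of CD4 T cells and of other cells the isolation could hold. The 6 CD4 T cell markers on the array averaged 11.53 to 11.72 in KO and 11.05 to 11.62 in WT. The other lists had averages of 4.67 to 6.92 on any array. These averages come from different probe sets, whose brightness also depends on the probes, so they do not show how many other cells were present. B cell markers (5 of 6 on the array) averaged 6.06, 6.18 and 5.78 on KO replicates 1 to 3 and 6.42, 6.36 and 5.74 on WT replicates 1 to 3. The B cell gene Ms4a1 measured 6.39, 7.85 and 6.45 in KO against 8.02, 8.22 and 6.55 in WT, high on KO replicate 2 and on WT replicates 1 and 2, the arrays on which the members were highest within their group, and low on the rest. The tested B cell markers did not move as 1 group, with Blk at -0.25, Cd79a at 0.08 and Cd79b at 0.15 and thus 2 lower and 2 higher in KO. Cd79b was highest on KO replicate 1, where the members were lowest.

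Most markers of CD4 T cells and of macrophages and monocytes had higher means in KO, where the members had lower ones. Of the 6 CD4 T cell markers, 5 had a higher mean in KO, and Cd28, the costimulatory receptor that the culture engaged, measured 12.36, 11.94 and 12.23 in KO against 11.004, 11.54 and 11.98 in WT, a difference of 0.67 with an unadjusted limma p of 0.0385 (adjusted p = 0.631). Cd3d, a chain of the T cell receptor complex, differed by 0.23. Macrophage and monocyte markers averaged 4.90 to 5.21 in KO and 4.69 to 5.08 in WT, and all 3 that were tested had a higher mean in KO. Among them Cd68, a lysosomal protein of macrophages, measured 7.10, 5.99 and 6.77 in KO against 5.50, 5.82 and 6.64 in WT, a difference of 0.63, and Adgre1 differed by 0.29. Cd28 and Cd68 each ordered the 6 arrays in the exact reverse of the members' mean level, which was noticed after the values were seen. The members' order is also that of the arrays on the first principal component of all tested genes. How many of all tested genes follow or reverse that order was not counted. For CD8 T cells, Cd8b1 and Cd8a differed by 0.10 and 0.02. The NK cell list averaged 5.66, 5.84 and 5.64 on KO replicates 1 to 3 and 5.84, 6.12 and 5.41 on WT replicates 1 to 3. Like the members, it was highest on replicate 2 among the KO arrays and lowest on replicate 3 among the WT arrays. Of its 3 tested genes, 2 had a lower mean in KO, with Eomes at -0.47 and Klrd1 at 0.36. The dendritic cell genes Flt3 and Zbtb46 differed by 0.17 and 0.01, and the erythroid genes Klf1 and Alas2 by 0.07 and -0.0081. The part of such cells in the members' difference was not tested, and without detection calls no marker could be placed at background.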

How the data were processed

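Per the submitters' processing notes, the authors used RMA and affy (no version in the sources used here) to produce the log2 values they deposited. This method corrects background, brings arrays to 1 distribution and summarises the probes of a probe set. It compresses differences near background. All 6 columns were mapped to a sample by title.

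Of 22690 probe sets, 20393 had 1 gene symbol in the platform annotation, 691 had several and 1606 had none. A gene was represented by its brightest probe set over the 6 arrays, and the dimmest 25% of genes were dropped, leaving 9295. The test of KO against WT was limma's (version 3.58.1, R 4.3.3, lmFit and eBayes), two-sided, adjusted over the 9295 genes by Benjamini-Hochberg. This code was first tested on simulated data. With 3 arrays a group the precision is limited by their number, and an exact permutation test could not give a p below 0.1. Array pairs correlated between 0.971 and 0.996, and no arrays were identical.

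The genes named are Mir155hg and, among the members, the 8 lower and up to 8 higher with the smallest p, the 4 brightest, the 4 dimmest, the 3 whose probe sets disagree most and 7 with known roles, then from each other list the 2 with the smallest p, with Myc and Nrf1 always. The text says where another gene is named. Members and lists were chosen with earlier results of these data known. Mrpl30 and Mrpl53 were measured only by probe sets shared with another gene and are not members, and a shared probe set of Mrps34 was not used. The alternatives tried were a replicate block, leaving out arrays, other scaling, filters, probe set rules and limma settings.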

Additional observations from a re-analysis of the deposited data

How the results depend on the processing

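The median difference of the members stayed negative under every alternative, between -0.43 and -0.26. Leaving out single arrays gave -0.43 to -0.26 for it, 0 genes and 0 members with a limma adjusted p under 0.05, 1 to 30 members lower (1.43% to 42.9%, against 1.39% to 9.33% of all tested genes) and 0 higher at an unadjusted p under 0.05, so the count of 7 rests on single arrays. That count was 16 with the replicate number as a block (22.9%, against 5.10% of all genes) and 11 with no filter on low values (15.7%, against 3.64%). With every probe set on its own it was 12 of 113 member probe sets (10.6%, against 3.47% of all probe sets). Array weights (statmod 1.5.0) gave 3581 genes and 47 members an adjusted p under 0.05, with 52 members lower (74.3%, against 26.4% of all genes) and 2 higher (against 24.3%) at an unadjusted p under 0.05. The weights of the arrays other than KO replicate 3 and WT replicate 2 were 0.27 to 0.58. The cause of these shifts was not tested. Deviations from the group means correlated between same-numbered arrays at -0.04, 0.64 and 0.40 for replicates 1, 2 and 3. These arrays also shared sex-linked transcripts. The labels number the replicates but do not state a pairing, and the main test did not use one. The count of 16 given above comes from the fit that takes the numbers as a block, so the count depends on this choice. With arrays centred on their median, 2.81% of all genes were lower and 4.44% higher at an unadjusted p under 0.05, against 3.86% and 3.57% as deposited.

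Leaving out single arrays gave -0.011 to 0.27 for Mrpl9, -0.051 to 0.21 for Mrpl48 and -0.18 to 0.10 for Mrpl52. Mrpl52 was also 0.095 without both replicate 3 arrays, a setting chosen after seeing the data, 0.011 with arrays centred on their median, 0.0016 with a further quantile normalization and 0.053 with the mean of all probe sets. Of the values of single named members under the alternatives, 388 kept their direction and side of the threshold, 10 turned and 18 passed the threshold, all 18 with array weights. The number of arrays limits what could be detected, and no signal over background was used here.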
